A study of Rattus norvegicus with 43 samples.

Results

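The immediate early genes Fos, Fosb, Jun, Junb, Egr1, Dusp1, Ier2, Nr4a1, Atf3 and Btg2 were examined in the anterior pituitary gland of 43 estrogen-treated male rats. The 10 genes were chosen by name, as genes that cells switch on within minutes of a stimulus, and not by their values. A gene was measured where a probe set, a group of short probes read as 1 value, carried that gene's symbol alone. This held for 9 of the 10 genes, through 13 probe sets of 31099 in all, and Btg2 had none and is not analysed here. The whole table names 14217 genes singly.

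The animals were F2 males of an intercross between Copenhagen (COP) females and ACI males, so each carried its own mixture of the 2 parental genomes. All 43 had received a 5 mg implant of the synthetic estrogen diethylstilbestrol (DES) at 9 weeks of age and were decapitated at 21 weeks, after 12 weeks of treatment, with an injection of bromodeoxyuridine (BrdU, 50 mg/kg) 4 hours earlier. Glands were weighed and frozen at harvest, and the animals had been chosen from the 2 ends of the pituitary weight distribution. The labels do not tie an animal to a weight class or a genotype and there is no untreated animal, so the arrays form 1 group, and the question that can be put to them is how far the immediate early genes vary between animals and which other genes vary with them. Animals are named by the number in their labels, and the labels do not say what the numbering stands for.

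Immediate early genes need no new protein synthesis to be transcribed. Kinase cascades act on factors already bound at their promoters, chiefly serum response factor at the CArG box and CREB at the cyclic AMP response element (TGACGTCA), and the messages are short-lived. In the pituitary they respond to hypothalamic releasing hormones and to growth factors, and they also rise with handling, sacrifice and tissue dissection.

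Levels are given as log2(intensity + 16), in which a difference of 1 is close to a doubling, and each lies on the scale of its own probe set, so that levels of different genes are not set against each other. The arrays had been scaled to a common mean before deposit (500.2 on each of them once the dimmest and brightest 2% were trimmed). The hormone genes of the tissue were among its brightest probe sets, with Prl, prolactin, at a mean of 15.61 and Gh1, growth hormone, at 14.97. The array of animal 43 stood apart. Its mean correlation with the other arrays was 0.927, against 0.967 to 0.976 for the other 42, and the difference between the 3′ and 5′ control probe sets of actin, which widens when RNA is degraded, was 1.97, against 1.26 to 1.67. Results are therefore given with and without animal 43. The animals are separate, but nothing says in which batches their RNA was processed, and precision is limited by how many arrays there are.

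The stretch of 250 bases before the start of transcription was held for 7 of the 10 genes in the RefSeq promoter table (build GRCr8), namely Fosb, Junb, Egr1, Dusp1, Ier2, Nr4a1 and Btg2. Matches were sought on both strands. The full cyclic AMP response element TGACGTCA was found in Dusp1, Ier2 and Btg2, 3 of 7, against 1.59% of all 33469 promoters. Its core TGACG, which the full element contains on each strand, was found in 6 of 7, all but Fosb, against 18.2%. The CArG box was found in Egr1 alone, with 2 copies, against 1.5% of all promoters, while TGANTCA, the AP-1 site to which Fos and Jun proteins bind as pairs, was found in none of the 7 against 6.34%. The early growth response motif GCGGGGGCG was found in Nr4a1 alone (2.45% of all promoters), the GC box GGGCGG in Dusp1, Nr4a1 and Btg2 (30.5%), and TATAAA in Fosb and Junb (12.9%). Such matches describe the letters in this window and do not show that a factor binds there. The promoters of Dusp1, on which the clearest result below turns, and of the chromosome neighbours Junb and Ier2 are printed 5′ to 3′ with the core TGACG, read on either strand, and the full TGACGTCA in capitals. They lie at chr10:17184603-17184852 (Dusp1), chr19:40080876-40081125 (Junb) and chr19:40399123-40399372 (Ier2), all on the plus strand of GRCr8.
Dusp1: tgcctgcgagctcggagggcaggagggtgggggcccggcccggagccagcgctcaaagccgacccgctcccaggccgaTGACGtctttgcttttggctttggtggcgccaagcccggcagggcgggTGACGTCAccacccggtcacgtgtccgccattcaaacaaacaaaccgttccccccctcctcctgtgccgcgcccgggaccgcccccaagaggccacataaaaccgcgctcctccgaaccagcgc
Junb: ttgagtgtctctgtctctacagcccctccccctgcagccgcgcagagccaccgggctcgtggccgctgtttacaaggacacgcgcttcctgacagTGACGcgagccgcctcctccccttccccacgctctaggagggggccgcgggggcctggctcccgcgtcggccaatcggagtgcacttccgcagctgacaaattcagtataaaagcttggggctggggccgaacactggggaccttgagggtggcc
Ier2: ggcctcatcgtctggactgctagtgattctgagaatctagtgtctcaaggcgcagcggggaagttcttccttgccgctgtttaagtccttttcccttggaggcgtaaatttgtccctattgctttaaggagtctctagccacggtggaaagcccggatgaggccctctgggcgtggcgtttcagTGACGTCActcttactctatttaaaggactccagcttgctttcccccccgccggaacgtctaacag
Dusp1 carries the full element 124 to 117 bases before its start and a further core at 172 to 168, Ier2 carries the full element at 66 to 59, and Junb has a single core at 155 to 151 and TATAAA at 49 to 44.

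Of the 2 FOS family members, which pair with JUN proteins to form the AP-1 transcription factor, Fos was bright and Fosb near the lower end of the probe sets tested. The main Fos probe set had a lowest intensity of 879.7, a median of 2089 and a highest of 3093, or 9.81, 11.04 and 11.60 on the log2 scale (mean 10.99 ± 0.31, SD, n = 43). Animal 38 was lowest at 9.81 and animal 43 next at 10.30, both clear of the other 41 animals, the lowest of which was at 10.56. The SD of Fos exceeded that of 92.5% of the 200 probe sets nearest to it in mean level. A second Fos probe set was dim, with a mean of 5.26 and intensities of 7.7 to 92.3, and did not follow the first (r = 0.06 over 43 animals, permutation p = 0.713, and rho = −0.07, p = 0.635). Fosb ran from 6.28 to 8.15 with a median of 7.40 (mean 7.28 ± 0.39), barely above the filter at a mean of 7.16. Animal 26 was highest and animal 24 lowest in Fosb, and animals 38 and 43 were not among its 5 lowest.

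Both JUN family members were well above the filter. Jun, the usual partner of FOS, had a lowest value of 9.01, a median of 10.10 and a highest of 10.61 (mean 10.09 ± 0.29, SD, n = 43). The lowest was animal 43 and the next, animal 42, stood at 9.54. Without animal 43 the range of Jun narrowed to 1.06 and its SD to 0.24. The other Jun probe sets averaged 9.39 ± 0.22 and 8.36 ± 0.28 and placed animal 43 at 9.60 and 8.24, 35th and 13th from the lowest, so its low value was seen in the main probe set only. Over all animals the other Jun probe sets had r of 0.32 (permutation p = 0.0352) and 0.48 (p = 0.00115) with the first, and without animal 43 they had 0.51 and 0.54. Junb, a weaker activator that can oppose Jun, was the steadiest of the genes, running only from 9.55 to 10.26 with a median of 9.89 (mean 9.90 ± 0.17). Of the 200 probe sets nearest to it in level, 25.5% had a smaller SD.

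Among the other transcription factors, Egr1 and Nr4a1 were bright and Atf3 dim. Egr1, a zinc finger factor that works with SF-1 on the luteinizing hormone beta gene in gonadotrophs, ran from 9.86 to 11.38 with a median of 10.68 (mean 10.67 ± 0.34, SD, n = 43), and its SD exceeded that of 96% of probe sets of like level. Animal 43 was again lowest, next to animal 7 at 10.01, and animal 33 was highest. Nr4a1 (Nur77), an orphan nuclear receptor that activates Pomc in corticotrophs, ran from 10.71 to 12.23 with a median of 11.32 (mean 11.32 ± 0.27). Animal 26 alone made its upper end, at 12.23 with the next, animal 12, at 11.75, and animals 32 and 43 its lower end at 10.71 and 10.74. Atf3, a stress-induced member of the ATF/CREB family, had intensities of 15.9 to 179.2 with a median of 90.9, or 5.00, 6.74 and 7.61 on the log2 scale (mean 6.61 ± 0.59). It did not pass the filter on mean level and so was not itself tested as a gene that varies with others. Its SD exceeded that of 79% of probe sets of like level.

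The remaining measured genes curb or follow the early response. Dusp1, a nuclear phosphatase that inactivates MAP kinases, was among the brightest probe sets, with intensities of 4752 to 9927 and a median of 7880, or 12.22, 12.95 and 13.28 on the log2 scale (mean 12.87 ± 0.30, SD, n = 43). Its values were not spread evenly. The lowest 9 animals lay between 12.22 and 12.54 and the other 34 between 12.73 and 13.28, with the widest gap in the order, 0.19, between them. The second Dusp1 probe set, at 10.76 ± 0.26, did not show these 9 animals apart, had its own lowest value of 9.81 in animal 43, and had r of 0.22 (permutation p = 0.155) and rho of 0.32 (p = 0.0372) with the first. Ier2, a small nuclear protein of the early response, ran from 8.87 to 9.71 with a median of 9.33 (mean 9.30 ± 0.21), and 48% of probe sets of like level had a smaller SD.

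**Figure D1:**
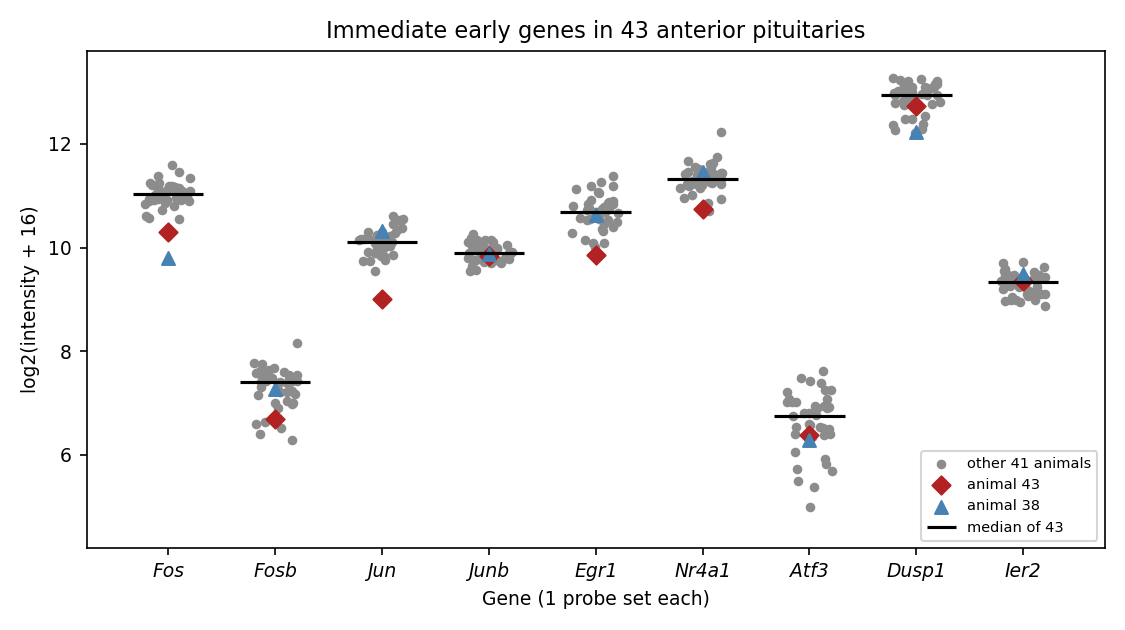
Level of each measured immediate early gene, as log2(intensity + 16), in the anterior pituitary of 43 DES-treated F2 males, with 1 point an animal and the bar at the median. Animal 38 is lowest in Fos at 9.81 and animal 43 is lowest in Jun and Egr1. In the main Dusp1 probe set the widest gap, 0.19, lies between the 9 lowest animals and the other 34.

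No animal was high or low in all of the genes. Animal 10 was among the 5 highest for 5 of the 9 genes (Fos, Junb, Dusp1, Ier2 and Nr4a1), and animals 25 and 39 for 4 each, although animal 25 was also among the 5 lowest for Fosb and Nr4a1. Animal 43 was among the 5 lowest for Fos, Jun, Egr1 and Nr4a1, and animal 38 for Fos and Dusp1 only. In all, the highest value of a gene exceeded its lowest by 1.63-fold (Junb) to 3.66-fold (Fosb) for the 8 genes that passed the filter, on the log2(intensity + 16) scale.

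The immediate early genes varied together weakly, if at all. Of the 28 pairs among the 8 genes that passed the filter, 26 had a positive r, but the median was 0.14, against 0.01 over all pairs of probe sets tested, of which 51.3% were positive. Without animal 43 the median of the 28 was 0.07 and 22 were positive. Each gene in turn was also used as the predictor in limma for all 15521 probe sets above the filter (its own probe sets left out), with p-values adjusted over all of them, and 0 of the 28 pairs reached an adjusted p of 0.05 in both directions. That count is strict, as the adjustment ran over all probe sets tested and not over the 28 pairs alone. A limma p below 0.05 before adjustment was reached by 3 pairs, namely Fos with Dusp1, Junb with Ier2, and Egr1 with Nr4a1.

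Fos and Dusp1, the AP-1 subunit and the phosphatase that ends the kinase signal, were the closest pair. Dusp1 was higher by 0.47 ± 0.13 (SE) for each unit of Fos on the log2 scale (adjusted p = 0.0485 in limma, r = 0.47 with permutation p = 0.00145, rho = 0.42 with p = 0.00524). The second Dusp1 probe set gave 0.40 ± 0.11 (adjusted p = 0.0476), and 0.26 (adjusted p = 0.253) without animal 43, its own lowest. Among the 7 other genes this was the single call, where 2.42% of all probe sets tested were called. The call was lost without animal 43 (adjusted p = 0.092, r = 0.48) and r was 0.37 without animals 38 and 43, the 2 farthest from the median of Fos. In the reverse direction, with Dusp1 as the predictor, Fos was not called (adjusted p = 0.384). The r of the pair is the same in both directions. The adjusted p also depends on how many probe sets each fit called, 376 on Fos and 5 on Dusp1, so the difference is not a weakness of the pair itself.

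The other 2 pairs were weaker. Junb and Ier2, which lie on chromosome 19 with 17 protein-coding genes between them in GRCr8, had r of 0.31 (permutation p = 0.0397) and rho of 0.32 (p = 0.0359), and r was 0.27 without the 2 animals farthest from the median of Junb. The limma adjusted p was 0.622 and 0.349 in the 2 directions. Egr1 and Nr4a1 had r of 0.34 (permutation p = 0.0256) and rho of 0.33 (p = 0.0327), with 0.22 without the 2 farthest animals, 0.25 without animal 43, and adjusted p of 0.25 and 0.23. Of the 8 pairs that include Atf3, Egr1 with Atf3 had the highest r, 0.41 (permutation p = 0.00702, rho = 0.43 with p = 0.00395), which was 0.38 without the 2 farthest animals. It did not pass the adjusted threshold when the filter was dropped so that Atf3 could be tested (adjusted p = 0.28 and 0.19). Fos and Jun, the AP-1 partners, had r of 0.09 (permutation p = 0.569) and −0.15 without animal 43, and Jun was higher by only 0.08 ± 0.14 for each unit of Fos. The slopes of Fosb, Junb, Egr1, Ier2 and Nr4a1 on Fos lay between 0.02 and 0.14, with SE of 0.09 to 0.19.

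**Figure D2:**
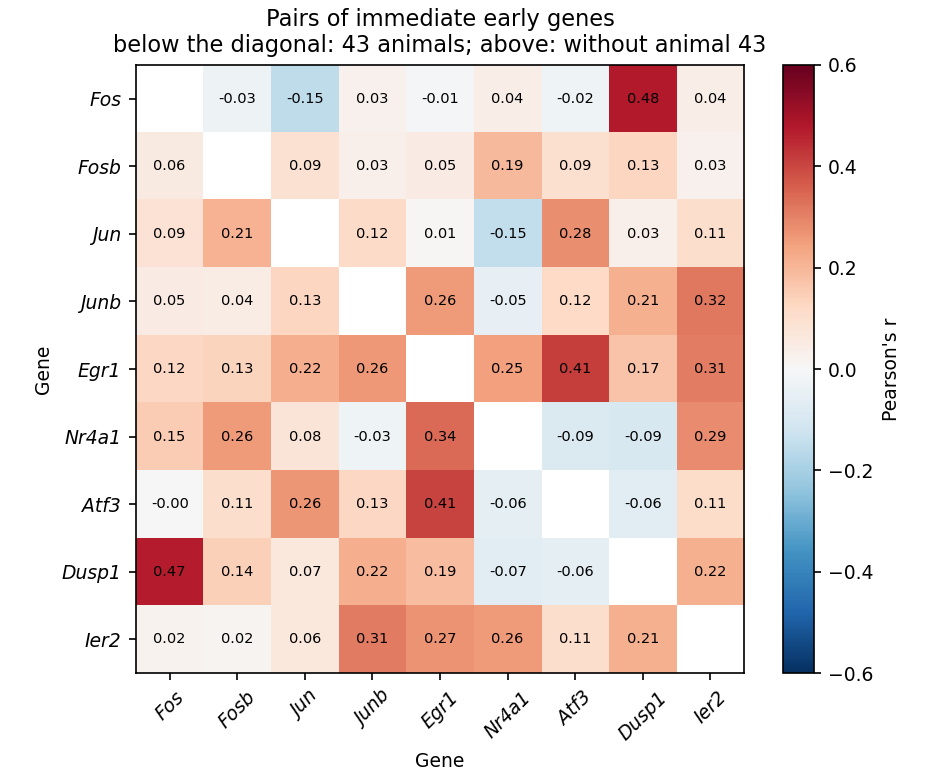
Pearson's r between each pair of measured immediate early genes over all 43 animals (below the diagonal) and over 42 animals without animal 43 (above it). Over all 43 animals Fos with Dusp1 has the highest r at 0.47 and Egr1 with Atf3 the next at 0.41. Of all 36 pairs 31 are positive, with a median r of 0.13.

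Used as a predictor of the rest of the transcriptome, Fos was related to 376 of 15520 probe sets (20.1% had an unadjusted limma p below 0.05), 246 higher (1.59%) and 130 lower (0.838%) where Fos was higher. Cell division genes were prominent among the first. Of 17 proliferation genes tested 5 rose with Fos and 0 fell, and the median r of the 17 was 0.44, against 0.00 over all probe sets. The 5 were Mki67, the Ki-67 proliferation antigen (slope 0.70 ± 0.15 SE, adjusted p = 0.0157), Ccna2 and Ccnb2, which encode cyclins A2 and B2 (1.24 ± 0.24, adjusted p = 0.00832, and 0.38 ± 0.11, adjusted p = 0.0427), Cdk1, their kinase (0.59 ± 0.13, adjusted p = 0.0134), and Aurka, a spindle kinase (0.50 ± 0.13, adjusted p = 0.0371). Ect2, needed for cytokinesis, Cdca3, Cks2 and Pttg1 (securin) were also among the 15 genes with the highest moderated t. Without animal 43 Mki67, Ccna2 and Cdk1 were still called, the slope of Ccna2 then being 0.78, and without animal 38 none of the 5 was. The slope of Mki67 was then 0.32 (adjusted p = 0.315), that of Ccnb2 0.11 (adjusted p = 0.642), and the adjusted p was 0.0513 for Ccna2 and 0.154 for Cdk1. With a step between animals 22 and 23 in the fit none of the 5 was called, and with a smooth trend over the animal numbers only Ccna2 was (adjusted p = 0.0446).

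The remaining genes at the top of the list were Ubl4a, which helps insert tail-anchored proteins (0.39 ± 0.07, r = 0.71, adjusted p = 0.00301), Entpd5, a nucleotidase of the endoplasmic reticulum (0.85 ± 0.15, r = 0.66, adjusted p = 0.00325), Tor2a of the torsin family (0.52 ± 0.09), the mitochondrial folate enzyme Aldh1l2 (0.58 ± 0.11), and Rnaseh2c, Plaur (the urokinase receptor), Exoc3l1, Ppp1r14b, Tmem97 and Rell2, with slopes of 0.30 to 0.88. Entpd5 lies on chromosome 6, as Fos does, with 25 protein-coding genes between them in GRCr8. Its rho with Fos was 0.53, and r was 0.53 without animals 38 and 43, 0.76 in animals 23 to 43 and 0.30 in animals 1 to 22. Among the 20 probe sets closest to Fos in r and placed on a chromosome, this was the only 1 on chromosome 6, or 5% against 4.46% of all.

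Genes of gonadotrophs, thyrotrophs and somatotrophs were among those called lower where Fos was higher. Of 5 gonadotroph genes 3 fell with Fos, namely Cga, the glycoprotein hormone alpha subunit (−0.60 ± 0.15, adjusted p = 0.0308), Fshb, the follicle-stimulating hormone beta subunit (−1.06 ± 0.30, adjusted p = 0.0485), and Nr5a1, which encodes SF-1 (−0.95 ± 0.25, adjusted p = 0.0339). Of 2 thyrotroph genes Tshb, the thyrotropin beta subunit, fell (−1.59 ± 0.37, adjusted p = 0.021), and of 4 somatotroph genes Gh1 (−0.64 ± 0.18, adjusted p = 0.0413). Among 6 folliculostellate and stem cell genes Aldh1a1, a retinaldehyde dehydrogenase, fell (−0.87 ± 0.20, adjusted p = 0.019). None of these 6 genes was called without animal 38, without animal 43, or with the step or the trend over animal numbers in the fit. None of the 4 lactotroph genes was called, with a median r of −0.34 and r of −0.37 for Prl. In a whole gland, fewer cells of a type and less message in each cannot be told apart. The strongest relations downward were those of Ugdh, UDP-glucose dehydrogenase (−0.39 ± 0.07, adjusted p = 0.00573 in limma), and Prkacb, a catalytic subunit of protein kinase A (−0.34 ± 0.07). Beside them were the clock genes Dbp (−0.61 ± 0.13) and Nr1d2 (−0.34 ± 0.08), with Rpp40, Inpp1, Ptrh2, Atxn3 and Apip at slopes of −0.35 to −0.58.

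These counts rest on few animals. Without animal 43, 26 probe sets rose and 10 fell, without animal 38, 9 and 5, and without both, 0 and 0 (589 and 860 at an unadjusted limma p below 0.05), so that none of the genes named on Fos was called. With the step between animals 22 and 23 in the fit 6 rose and 1 fell, and with the smooth trend 7 and 1. Of the 36 called genes named on Fos, 6 were called with the step, namely Ubl4a, Entpd5, Tor2a, Ect2, Aldh1l2 and Ugdh. Animals 38 and 43 were the lowest in Fos. They were also the 2 highest in Tshb and the 2 lowest in Entpd5, and animal 38 was the lowest in Mki67, at 7.34.

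**Figure D3:**
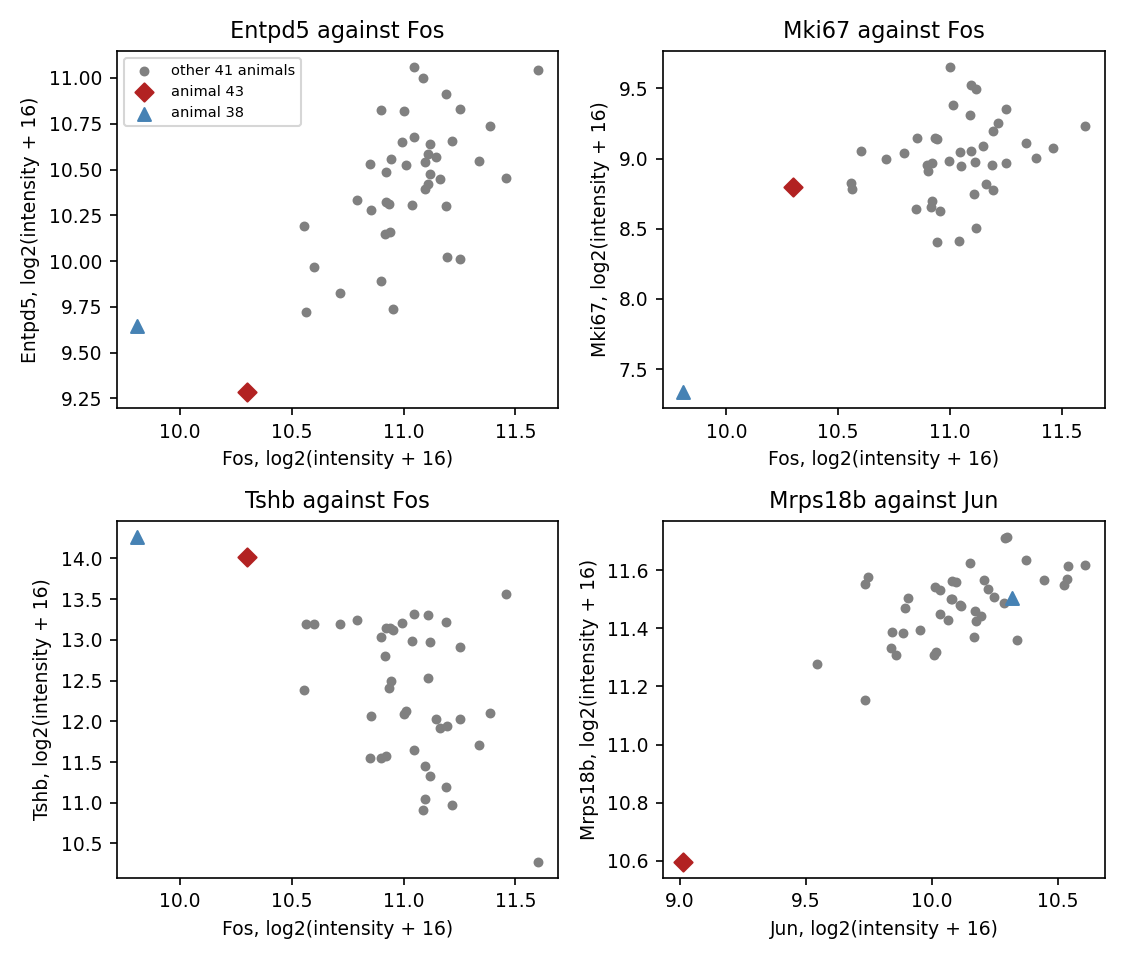
Entpd5, Mki67 and Tshb against Fos, and Mrps18b against Jun, each as log2(intensity + 16), with 1 point an animal. Animals 38 and 43 sit apart from the other 41 at the low end of Fos, and animal 43 alone at the low end of Jun at 9.01.

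Jun gave by far the most calls, and all of them went with 1 array. As the predictor it was related to 2523 of 15518 probe sets, 16.3%, with 1542 higher and 981 lower, while 0 of the 7 other immediate early genes were among them. The genes closest to Jun were Mrps18b, a mitochondrial ribosomal protein (r = 0.75, adjusted p = 0.000228), Gga2, a sorting adaptor (r = 0.72), and Abhd8 (r = 0.72). Of 21 further early-response transcription factors 3 rose with Jun, namely Id2 (r = 0.57, adjusted p = 0.00322), Per1 and Cebpb, and 1 fell, Crem, which encodes regulators of cyclic AMP targets (r = −0.53, adjusted p = 0.00735). Of 29 early-response genes of other kinds 3 rose, namely Gadd45a (r = 0.57, adjusted p = 0.0032), Rhob and Ppp1r15a, and 0 fell. Both shares lie near those over all probe sets, 9.94% higher and 6.32% lower. On other lists 3 of 8 integrated stress response genes and 2 of 7 glucocorticoid-induced genes rose and 0 fell. Of 12 heat shock genes 3 rose and 1 fell. Of 17 upstream kinases and factors 1 rose and 1 fell, and of 17 proliferation genes 0 rose and 1 fell. Without animal 43, 0 probe sets were called (1127 at an unadjusted limma p below 0.05), and with the 3′ to 5′ differences of actin and GAPDH as covariates 0 were called as well (776 unadjusted). Mrps18b had r of 0.58 without animal 43.

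Dusp1 had only 5 related probe sets of 15519 (0.0322%), all of them higher where Dusp1 was higher, and the 3 that carry 1 gene symbol lie on the same chromosome as Dusp1. They were Msrb1, a methionine sulfoxide reductase (slope 1.33, r = 0.82, adjusted p = 3.61e-08 in limma), Hba-a3, an alpha globin (adjusted p = 4.81e-08), and Kcnip1, a potassium channel interacting protein (slope 0.89, r = 0.65, adjusted p = 0.00288). Of the other 2 probe sets 1 carried the symbols of the theta globins Hbq1b and Hbq1 (r = 0.78, adjusted p = 4.26e-07 in limma) and 1 carried none. The 3 genes and Dusp1 are on chromosome 10 in GRCr8, in the order Msrb1, Hba-a3, Dusp1, Kcnip1, with 92 protein-coding genes between Msrb1 and Dusp1, 20 between Hba-a3 and Dusp1 and 12 between Dusp1 and Kcnip1. None of the 7 other immediate early genes was called.

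Hba-a3 had 2 separate levels. In 9 animals it lay between 6.27 and 8.92 and in the other 34 between 12.44 and 13.86, and 8 of its 9 low animals were among the 9 lowest in Dusp1. The exceptions were animal 32, low in Hba-a3 at 7.77 but at 12.84 in Dusp1, and animal 38, which at 12.24 in Dusp1 was second lowest and at 12.44 in Hba-a3 belonged to the high animals. The median of Dusp1 was 12.39 in the 9 animals low in Hba-a3 and 13.01 in the other 34. Because these animals form clusters, the relation was also read within them. Among the 34 animals high in Hba-a3, r between Dusp1 and Hba-a3 was 0.76 (rho = 0.75, permutation p = 1e-05 for each, the smallest that 100000 permutations can give), and among the 9 low animals it was 0.05. Msrb1 had r of 0.70 and rho of 0.77 with Dusp1 among the 34 (permutation p = 1e-05 for each). For Kcnip1 these were 0.40 (p = 0.0178) and 0.28 (p = 0.108), and r was 0.21 without animal 38. These genes had been picked for their relation to Dusp1 over the same animals, and the 34 were set apart by Hba-a3 itself. The permutation p-values make no allowance for either choice. Between the 9 animals low in Hba-a3 and the other 34, the ranges of Dusp1 overlapped, as did those of the 8 other immediate early genes. The medians differed by −0.62 for Dusp1, and by −0.25 (Fosb) to 0.35 (Atf3) for the 8 others.

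Globin messages come from red cells, and the alpha globin genes are near-identical copies, so the Hba-a3 probe set cannot be assigned to 1 copy with certainty. Of the genes on the erythroid list, Hbb, beta globin, had r of 0.09 with Dusp1, and Alas2, the heme synthesis enzyme of red cells, 0.06. The probe set of the theta globins Hbq1b and Hbq1 had r of 0.78. The second Dusp1 probe set had r of −0.09 with Hba-a3, 0.16 with Msrb1 and −0.10 with Kcnip1, so the relation was seen in the main probe set only, and when both were averaged 1 probe set was called. Without animal 43, whose array stood apart, r with Dusp1 was 0.83 for Msrb1, 0.81 for Hba-a3 and 0.69 for Kcnip1. The number of probe sets called was 5 without it and 5 to 7 with any 1 of the 43 animals left out. Leaving out any 1 animal gave an adjusted p of at most 2.88e-07 for Msrb1, 1.07e-06 for Hba-a3 and 0.015 for Kcnip1. In animals 23 to 43 alone r with Msrb1 was 0.75 and 0 probe sets were called (770 at an unadjusted limma p below 0.05), and in animals 1 to 22 alone r was 0.93 and 5 were called.

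The relation did not extend to every neighbour. Among the 20 probe sets closest to Dusp1 in r and placed on a chromosome, 12 lay on chromosome 10, or 60%, against 8.52% of all 12418 tested and placed, and for the other genes this count was 0 to 2 of 20. Of the 125 probe sets of the 50 measured genes on each side of Dusp1, 4 had r beyond 0.5 in either direction. Over all probe sets tested 24 of 15519 did, and 1 of 688 did more than 150 measured genes away on chromosome 10. The median absolute r of the 125 was, however, 0.11, as it was over all probe sets. Jpt2 (r = 0.58) and Pigq (r = −0.54), both on the Msrb1 side, were among the 4, and Marf1, Litaf, Dnaja3 and Hcfc1r1, farther out on that side, had r of −0.54, 0.51, 0.56 and 0.56. On the Kcnip1 side Mrpl55, the measured gene at place 99 from Dusp1, had r of 0.57, and Psmd12, at place 547, had −0.51.

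**Figure D4:**
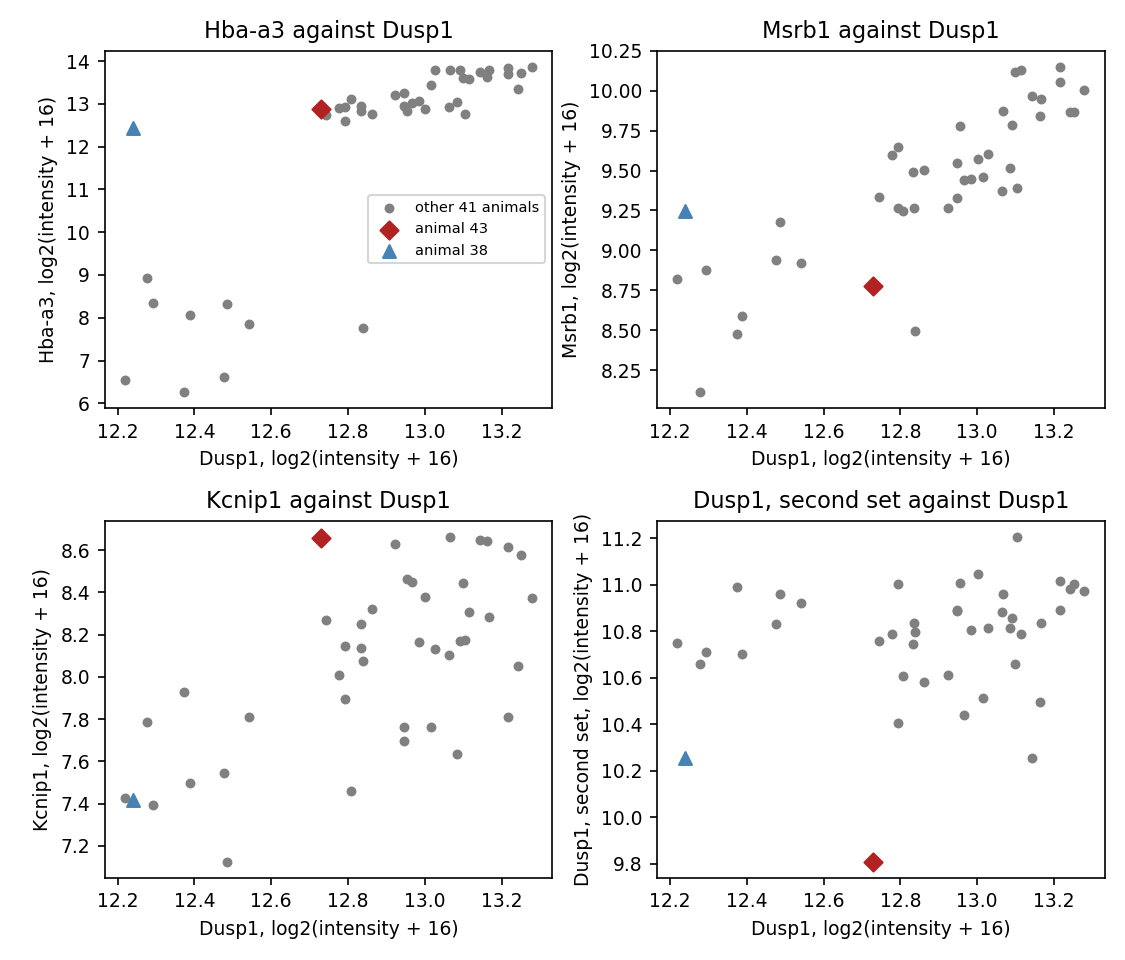
Hba-a3, Msrb1, Kcnip1 and the second Dusp1 probe set against the main Dusp1 probe set, each as log2(intensity + 16), with 1 point an animal. Hba-a3 has 2 levels, 6.27 to 8.92 in 9 animals and 12.44 to 13.86 in 34, and 8 of the 9 are among the lowest in Dusp1, whereas the second Dusp1 probe set shows no such separation.

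**Figure D5:**
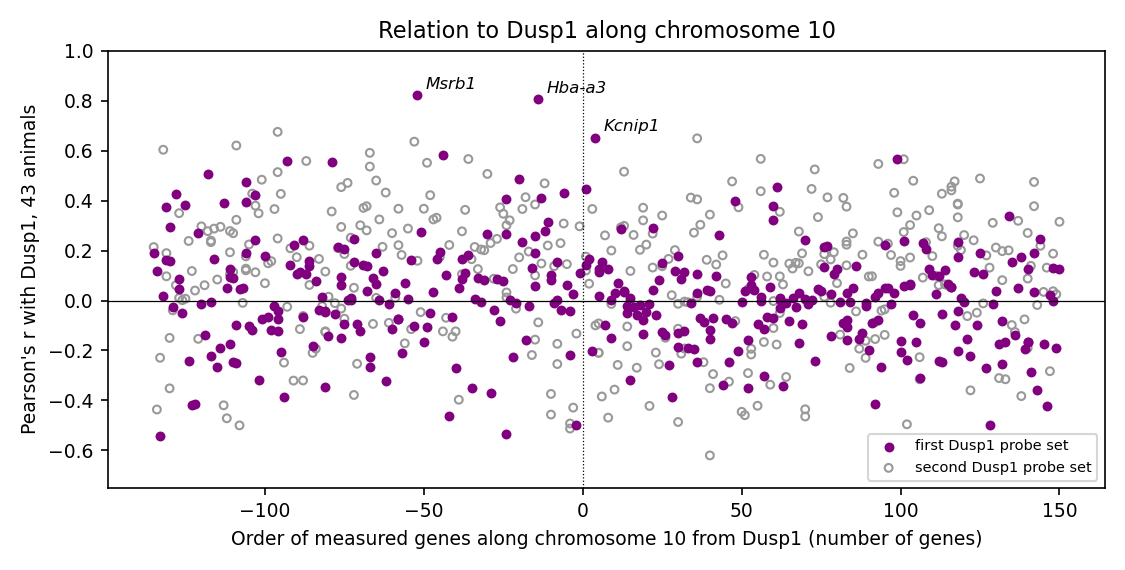
Pearson's r with Dusp1 over 43 animals for probe sets of genes on chromosome 10, placed by the order of measured genes before (negative) and after (positive) Dusp1. With the main Dusp1 probe set (filled) Msrb1, Hba-a3 and Kcnip1 stand above the rest, at 0.65 to 0.82, and with the second (open) they do not.

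Atf3, used as a predictor although too dim to be tested itself, was related to 392 of 15521 probe sets (2.53%), 265 higher (1.71%) and 127 lower (0.818%), with 0 of the 8 other immediate early genes among them. The genes closest to it were Hspb8, a small heat shock protein (r = 0.70, adjusted p = 0.000993), Prp2l1 (r = 0.70, adjusted p = 0.00119) and Gas6, a ligand of TAM receptors (r = 0.67, adjusted p = 0.00165). Of 5 gonadotroph genes 2 rose with Atf3, namely Gnrhr, the receptor of gonadotropin-releasing hormone (r = 0.63, adjusted p = 0.00318), and Cga (r = 0.46, adjusted p = 0.0495), and the median r of the 5 was 0.45, against 0.01 over all probe sets. Of 12 heat shock genes Hspa1a, the inducible heat shock protein, rose (r = 0.50, adjusted p = 0.0272), with a median r of 0.29 for the 12. Of 2 thyrotroph genes Tshb rose (r = 0.46, adjusted p = 0.0471), with a median r of 0.22 for the 2. Of 4 lactotroph genes only Drd2, the dopamine receptor of lactotrophs, was called, and it fell (r = −0.48, adjusted p = 0.0413). The median r of the 4 was 0.05. Nefl, a neurofilament of the posterior lobe and neural list, had r of 0.65 (adjusted p = 0.0021), and the median r of the 3 genes tested on that list was 0.09. Fewer probe sets were called in fits that used the numbering of the animals: 3 when a step between animals 22 and 23 was added, and, with fewer animals in each fit, 1 within animals 23 to 43 and 0 within animals 1 to 22 (1440 at an unadjusted limma p below 0.05). The median of Atf3 itself was higher by 0.62 in animals 23 to 43 than in animals 1 to 22. With the step the slope on Atf3 was 0.29 for Hspb8, against 0.40 without it, and 0.31 for Prp2l1, against 0.33. It was 0.34 for Gnrhr, against 0.62, and 0.06 for Cga, against 0.28. Of Cga, Gnrhr, Hspb8, Prp2l1 and Gas6, only Prp2l1 was still called with the step (adjusted p = 0.0489). With the smooth trend 0 of these 5 were. Gnrhr had an adjusted p of 0.263 with the step and 0.244 with the trend. Without animal 43, 804 probe sets were called, and Cga lost its call with 32 of the 43 animals left out in turn. What that numbering stands for was not tested.

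Fosb, Junb, Egr1, Ier2 and Nr4a1 had 0 related probe sets in limma, with 2128, 1208, 2366, 2170 and 2613 at an unadjusted p below 0.05. Without animal 43, 7 were called for Egr1. The genes most like each, by r over the 43 animals, were Capn1, Midn and Zfp574 for Fosb (0.58 to 0.59), Minar2, Bsg and Prr13 for Junb (0.53 to 0.57), Bcat2, Myl12a and Rab5b for Egr1 (0.60 to 0.62), Swt1, Pld4 and Rhoa for Ier2 (0.55 to 0.57), and Kank1, Stxbp5 and Tom1 for Nr4a1 (0.57 to 0.61). Their adjusted p was at least 0.0677.

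Other early-response genes were counted against all probe sets, of which 1.59% rose with Fos and 0.838% fell. Of 21 further transcription factors of this class that were tested, Nfil3, a bZIP repressor, was the only 1 to rise with Fos (0.66 ± 0.16, adjusted p = 0.0236), and 0 fell, with a median r of 0.00. It was not called without animal 43 (adjusted p = 0.134). Of 29 early-response genes that are not transcription factors 0 were called, with a median r of 0.07, and the highest r were those of Zfp36, which destabilizes messages (0.47), Sik1 (0.46) and Cited2 (0.45). None of the close relatives was called with its namesake. Fosl2 had r of 0.26 with Fos, and Jund had 0.21 with Jun, while Nr4a2 and Nr4a3 had 0.46 and 0.37 with Nr4a1 and Dusp6 had 0.17 with Dusp1. Fosl1, Egr2 and Egr4 did not pass the filter. Of 17 kinases and factors that act upstream, 0 were called on Fos. Among them Srf, the factor of the CArG box, had r of −0.12 with Fos and 0.12 with Egr1, Creb1 had −0.16 with Fos, and Atf1, its relative, had the highest r with Fos at 0.48 (adjusted p = 0.064). Of 12 heat shock genes and 8 genes of the integrated stress response 0 were called on Fos, nor were any of 7 glucocorticoid-induced genes or of the 10 macrophage and leukocyte, 4 endothelial, 3 fibroblast, 3 posterior lobe and neural, 2 erythroid or 1 corticotroph genes tested.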

How the data were processed

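Biotin-labelled RNA of 43 anterior pituitaries was hybridised, 1 array each. What the authors deposited is an intensity for each probe set, already scaled between arrays. How probes were summarised is not stated in the labels. From these intensities log2(intensity + 16) was computed. Probe sets with a mean above the median of the 31042 that are not controls (7.16) passed the filter, which left 15521. A probe set was named where the platform annotation gave 1 symbol (20826 probe sets), and a gene was represented by its brightest probe set. With no groups in the labels, each immediate early gene was the predictor in limma 3.58.1 (R 4.3.3, lmFit and eBayes), with Benjamini-Hochberg adjustment over all probe sets tested and a threshold of 0.05. Correlations have 2-sided p-values from 100000 permutations (numpy 2.4.6). The regression on Fos was tested on simulated data. It recovered 100% of slopes of 1 SD and 25% of the smaller slopes tried, with 7 calls among unchanged probe sets. A count of 0 calls therefore does not show that no relation exists. Named were the genes, the members of 18 gene lists, the 15 highest and 10 lowest by moderated t on Fos, and the 3 most like each gene, beside the chromosome 10 neighbours of Dusp1, chosen after their values were seen. The genes, lists and alternatives were chosen with earlier results of these data known. The fits on genes other than Fos were added after seeing the data. Chromosomes and gene order come from RefSeq (GRCr8).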

Additional observations from a re-analysis of the deposited data

How the results depend on the processing

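With 43 arrays and no second group, relations carried by 1 or 2 animals can pass the threshold, and dim probe sets (Atf3, Fosb, the second Fos probe set) are compressed by the added 16. No paired analysis was possible because the labels give 1 group. The count of pairs called in both directions was 0 under each alternative, and the fits on Junb and Ier2 made 0 calls under each but leaving 1 animal out. The fits on genes other than Fos, and leaving out animals 38 and 43 together, were added after seeing the data. The cause of each change below was not tested.

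For Fos, the 246 higher and 130 lower probe sets became 100 and 37 with quantile normalization, 48 and 15 with no filter, 94 and 34 with array quality as covariates, 6 and 1 with the step between animals 22 and 23, and 7 and 1 with a smooth trend over animal numbers. With array medians subtracted 625 were higher. Both counts were 0 with the probe sets of a gene averaged, with ranks, without animals 38 and 43 (the 2 farthest from the median), and in animals 23 to 43 or 1 to 22 alone. Leaving out 1 animal gave 9 to 481 higher and 5 to 294 lower. For Jun, 2523 became 1433 with quantile normalization, 1670 with no filter and 0 with averaged probe sets, without the 2 farthest animals, with array quality, with the trend, with ranks and in animals 1 to 22 alone, and 0 (without animal 43) to 3001 leaving out 1 animal. For Dusp1, 5 became 8 with array medians subtracted, 3 with the stricter filter, 1 with averaged probe sets, and 0 in animals 23 to 43 alone. For Atf3, 392 became 241 with array medians subtracted, 127 with no filter, 236 with the stricter filter, 709 without the 2 farthest animals, 838 with array quality, 3 with the step, 1 with the trend, 658 with ranks, 1 in animals 23 to 43 and 0 in animals 1 to 22, and 184 to 930 leaving out 1 animal. Where no probe set was called at first, Egr1 reached 24 with the stricter filter and 2 with array quality or the step, Nr4a1 reached 3 with the stricter filter, 661 without the 2 farthest animals, 18 with the step and 6 in animals 1 to 22, and Fosb reached 5 with the step. Leaving out 1 animal gave 0 to 43 for Fosb, 0 to 1 for Junb, 0 to 77 for Egr1, 0 to 34 for Ier2 and 0 to 34 for Nr4a1.

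Slopes on Fos that had not been called changed sign in some settings. With averaged probe sets they were −0.326 for Fosb, −0.12 for Junb, −0.0537 for Egr1 and −0.11 for Ier2. Without the 2 farthest animals they were −0.0861 for Fosb, −0.096 for Jun and −0.0473 for Egr1. Jun had −0.0153 with array quality and −0.0814 with ranks, Nr4a1 −0.30 in animals 1 to 22, and Fosb −0.0252 and Junb −0.0423 in animals 23 to 43. Leaving out 1 animal gave −0.0407 to 0.132 for Fosb, −0.128 to 0.241 for Jun, −0.00603 to 0.0524 for Junb, −0.00862 to 0.203 for Egr1 and −0.0249 to 0.116 for Ier2. The slope of Dusp1 on Fos stayed between 0.24 and 0.64 and lost its call in 11 of 15 settings. In animals 23 to 43 the slopes on Atf3 were −0.0503 for Cga and −0.10 for Nr5a1.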
